A study of Mus musculus with 39 samples.

Results

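Genes of xenobiotic metabolism were measured in the epididymal fat of C57BL/6J mice, on 39 Agilent arrays read in 1 colour, and the comparisons asked how the enzymes differed between a high fat diet, the same diet with KAL-1, an ethno-botanical formulation, and a low fat diet. The genes were chosen by name: every non-control probe whose gene name began with Cyp1 to Cyp4, Ces, Ugt1, Ugt2, Sult or one of the glutathione S-transferase stems Gsta, Gstm, Gstt, Gstp, Gstk and Gsto. The rule found 126 gene names on 174 probes, out of 29411 gene names on the array. The brightest probe of each name was used, and 72 names were kept because that probe stood well above background on 20 or more of the 39 arrays. The value throughout is the log2 signal minus the 75th percentile of its array, so that a difference of 1 is a 2-fold difference in signal.

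The mice were weaned, aged 3 to 4 weeks at the start, and fell into 5 groups with no genetic alteration. LFC mice ate a low fat diet with 10% of calories from fat (11 arrays), HFC mice a high fat, high sucrose diet with 60% of calories from fat (10 arrays), and HF5, HF20 and HF75 mice the HFC diet with 5, 20 or 75 µg of KAL-1 (6 arrays each). All 5 groups had arrays of weeks 3, 6, 9, 12, 15 and 18. LFC and HFC also had arrays of days 6, 10 and 14 and week 0, and LFC had one of day 1. Each diet had 1 array at each time point, so time points served as the replicates. In the comparisons between diets the time point was a block, and the p-values measure how differences between diets varied over time points. The comparisons of late with early arrays had no block, and their p-values measure the spread between time points. Whether an array held 1 animal or several was not stated. KAL-1 was known only by this name, and every KAL-1 mouse also ate the HFC diet.

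Phase I enzymes, among them the cytochrome P450s (Cyp) and the carboxylesterases (Ces), add or expose a reactive group on a foreign or endogenous compound. Phase II enzymes, the UDP-glucuronosyltransferases (Ugt), sulfotransferases (Sult) and glutathione S-transferases (Gst), then attach a polar group, which makes the product easier to export. Liver is the main site of this metabolism, while fat cells use several of the same families for lipids, steroids and the products of lipid peroxidation.

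Of the 126 names, 54 were not kept, with 1 to 19 arrays well above background (median 5.5). Just outside the limit lay Cyp2b9 (17 arrays) and Sult1d1 (19 arrays), and just inside it Cyp4f14 and Cyp4f39 (21 arrays each) and Cyp4f15 and Ugt1a@ (22 arrays each). By family, 7 of 7 Gstm, 4 of 4 Gstt, 3 of 4 Gsta, 2 of 2 Gsto and the single Gstp1 and Gstk1 were kept. In contrast, 23 of 46 Cyp2 names, 13 of 20 Cyp4, 1 of 8 Cyp3, 2 of 3 Cyp1, 4 of 7 Ces, 7 of 11 Sult, 2 of 4 Ugt1 and 2 of 8 Ugt2 names were kept. Of the kept genes, 34 were well above background on all 39 arrays. Gstm1 was saturated on 25 arrays, so its values on those arrays are lower bounds.

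The array names genes as its design did. Of the 126 names, 117 were found in the RefSeq gene table, 107 under the same symbol and 10 under another. Ces3 is now Ces1d, Ces5 is Ces2e, Ces6 is Ces2a, Ces7 is Ces5a and Cyp2c44 is Cyp2c23. The probes of the 5 genes that most of the comparisons below turn on are printed so that the transcript each value reports can be identified.
Ces3: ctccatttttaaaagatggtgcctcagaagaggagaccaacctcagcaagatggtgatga
Gsta3: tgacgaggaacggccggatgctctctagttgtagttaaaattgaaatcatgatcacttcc
Gstm7: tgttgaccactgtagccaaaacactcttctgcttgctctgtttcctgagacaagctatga
Cyp1a1: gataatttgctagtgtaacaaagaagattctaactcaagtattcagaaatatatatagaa
Ces7: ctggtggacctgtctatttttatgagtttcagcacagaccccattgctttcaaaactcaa

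Several of these families arose by gene duplication, and near-identical genes can share signal. Over the 7875 pairs of the 126 probes, 6 pairs shared a run of 16 bases or more, and in 2 of them both genes were kept. The longest run joined Cyp4a12a and Cyp4a12b, fatty acid hydroxylases, and the next Gsta1 and Gsta2, alpha class transferases; the shared bases are in capitals.
Cyp4a12a: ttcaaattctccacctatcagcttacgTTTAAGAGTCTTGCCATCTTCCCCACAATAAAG
Cyp4a12b: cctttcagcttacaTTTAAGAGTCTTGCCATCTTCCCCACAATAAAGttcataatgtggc
Gsta1: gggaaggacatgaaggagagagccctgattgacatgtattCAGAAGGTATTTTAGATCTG
Gsta2: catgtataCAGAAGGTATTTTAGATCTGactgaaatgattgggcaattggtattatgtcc
Values of Cyp4a12a and Cyp4a12b, which share 33 bases, are therefore uncertain as values of single genes, and so are those of Gsta1 and Gsta2, which share 20.

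Of the 39 arrays, 2 stood apart. LFC week 3 had 97.1% of probes well above background and 16431 spots marked as outliers, and HFC week 12 had 94.5% and 10531. On the other 37 arrays these values were 53.7% to 79.6% and 21 to 387. Outlier spots were set to missing, so 30 of the 72 genes had no value on LFC week 3 and 20 had none on HFC week 12. Since HFC is the control of every dose, results are also given without both arrays. The tissue label was checked on 8 adipocyte markers (Adipoq, Plin1, Cidec, Fabp4, Lipe, Cfd, Retn and Lep), and all 8 were well above background on every array. Between 0 and 10 of 10 epididymis markers were also well above background, depending on the array. Fewer cells of a type and less RNA per cell cannot be told apart in such samples.

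The kept enzymes varied widely from array to array. Over the 37 arrays, 33 of 72 (45.8%) had an SD above 1, against 25.2% of the 28265 probes well above background on as many arrays, and their median SD was 0.97 against 0.72. Ces7, a carboxylesterase known from the epididymis, had the widest spread (SD 2.97), followed by the sulfotransferase Sult1c2 (SD 2.52). They were well above background on 24 and 28 of the 37 arrays, so part of their spread was read near the floor. The comparison with other probes was not matched on brightness. Ces3, a lipase of triacylglycerol, had an SD of 2.01 and the alpha class transferase Gsta3 one of 1.88. At the other end stood Gstt3 and Gstp1, each with an SD of 0.43.

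With all arrays and the scaling above, none of the 72 enzymes passed an adjusted p of 0.05 in any of the 10 comparisons, from limma with Benjamini-Hochberg adjustment over all probes tested. In the 6 comparisons of weeks 3 to 18, no probe of the 32083 tested passed it either, a share of 0.0% in each. The values below are therefore given as measured differences with their errors. The median SE of a member's difference between HFC and LFC was 0.55, and at that SE a difference of 1 is under 2 SE.

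**Figure D1:**
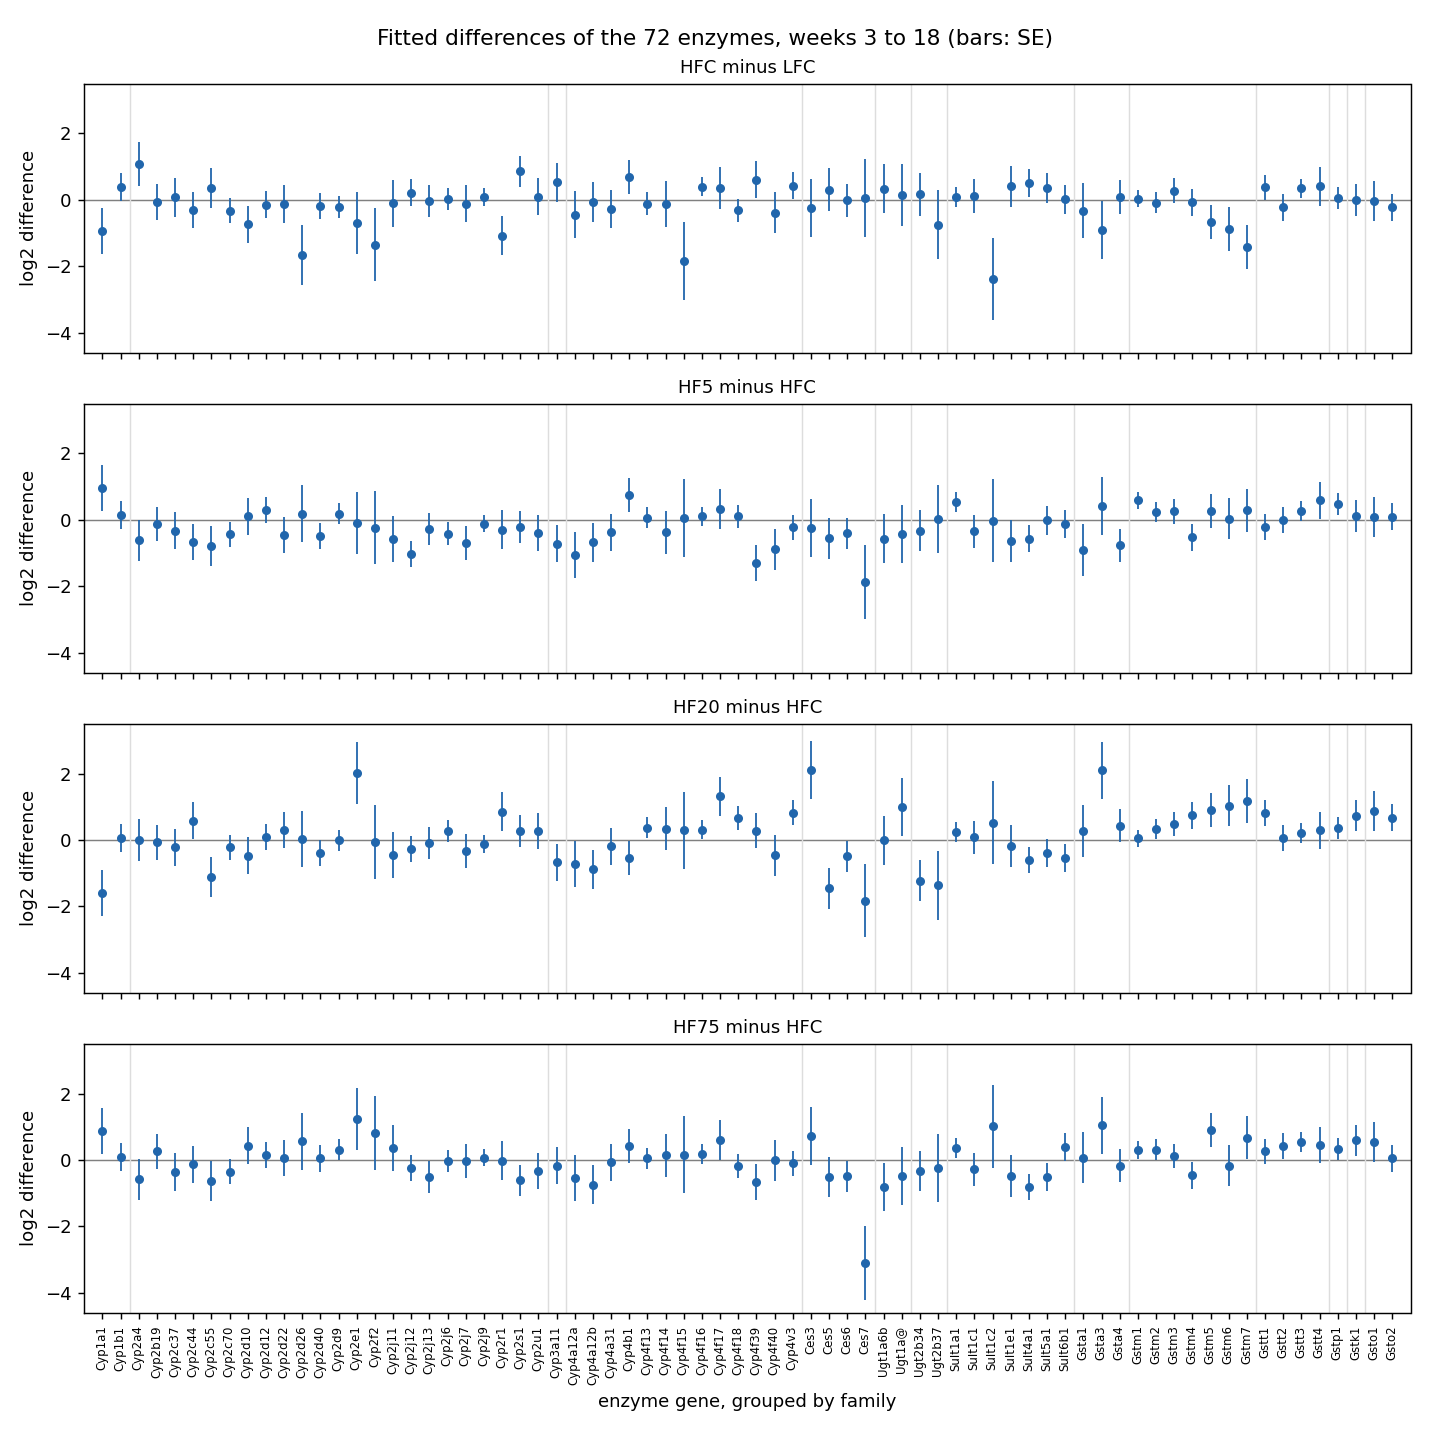
Fitted log2 differences of the 72 enzymes over weeks 3 to 18 for HFC minus LFC and for each KAL-1 dose minus HFC (points; bars, SE), grouped by family along the horizontal axis. Ces7 lay lowest with 75 µg, and Ces3, Gsta3 and Cyp2e1 lay highest with 20 µg, while most other bars crossed 0 or ended near it.

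On the HFC diet relative to LFC, the mu class transferase Gstm7 was the enzyme with the clearest separation over weeks 3 to 18. Gstm7 read -1.53 at the lowest, -1.30 at the median and 1.34 at the highest of 6 LFC arrays. The 6 HFC arrays read -3.14, -2.16 and -1.89. All 6 HFC arrays lay below all 6 LFC arrays, and the HFC array was the lower of the pair in 6 of 6 weeks. Gstm7 was the only one of the 72 without overlap, and 0.0997% of all probes tested lay as clearly lower. The fitted difference was -1.42 ± 0.65 (SE, n = 6 arrays per diet), with an unadjusted limma p of 0.039 and an adjusted p of 1.00. Without the 2 arrays that stood apart it was -1.17 with p = 0.111 in limma, still unadjusted, and without week 12 of all diets it was -0.81.

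Over all 72 enzymes, 33 were higher and 39 lower on HFC than on LFC, with a median of -0.04 against 0.06 for all probes tested. Only Gstm7 had an unadjusted p under 0.05, 1 of 72, where 2.33% of all probes did. Sult1c2, which sulfates phenols, was 2.38 ± 1.24 log2 units lower on HFC, with its arrays overlapping between the diets. That difference ran from -3.05 to -1.36 as each week was left out, the smallest without week 3. Cyp2a4, a testosterone hydroxylase, had the second highest statistic at 1.08 ± 0.66, but its difference turned to -0.38 with another background correction.

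Cyp2s1, a P450 of epithelia that handles retinoids, leaned the other way. Over weeks 3 to 18 it was 0.86 ± 0.47 higher on HFC. Over all 10 time points that had both diets, it read -1.85, -0.56 and 1.06 (lowest, median and highest) on LFC and -1.48, 0.65 and 2.33 on HFC. The ranges overlapped, yet within time points the HFC array was the higher in 9 of 10. The fitted difference was 1.11 ± 0.30 (SE, n = 10 arrays per diet), with p = 0.0027 before and 0.998 after adjustment in limma. Cyp4v3, a fatty acid hydroxylase, was higher on HFC at each of the 9 time points with both values, by 0.57 ± 0.24.

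In this comparison over all time points, 34 enzymes were higher and 38 lower (median 0.00, against 0.03 for all probes). Cyp2s1 and Cyp4v3 were the 2 with an unadjusted p under 0.05, and 3.05% of all probes had one, while 0.0% passed the adjusted threshold. The lowest statistics belonged to Ugt2b37, a glucuronosyltransferase, at -1.30 ± 0.68, and to Cyp2c70, which hydroxylates bile acids, at -0.51 ± 0.29. Without the 2 arrays that stood apart, 6 enzymes had an unadjusted p under 0.05, as did 6.55% of all probes, and none passed after adjustment.

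**Figure D2:**
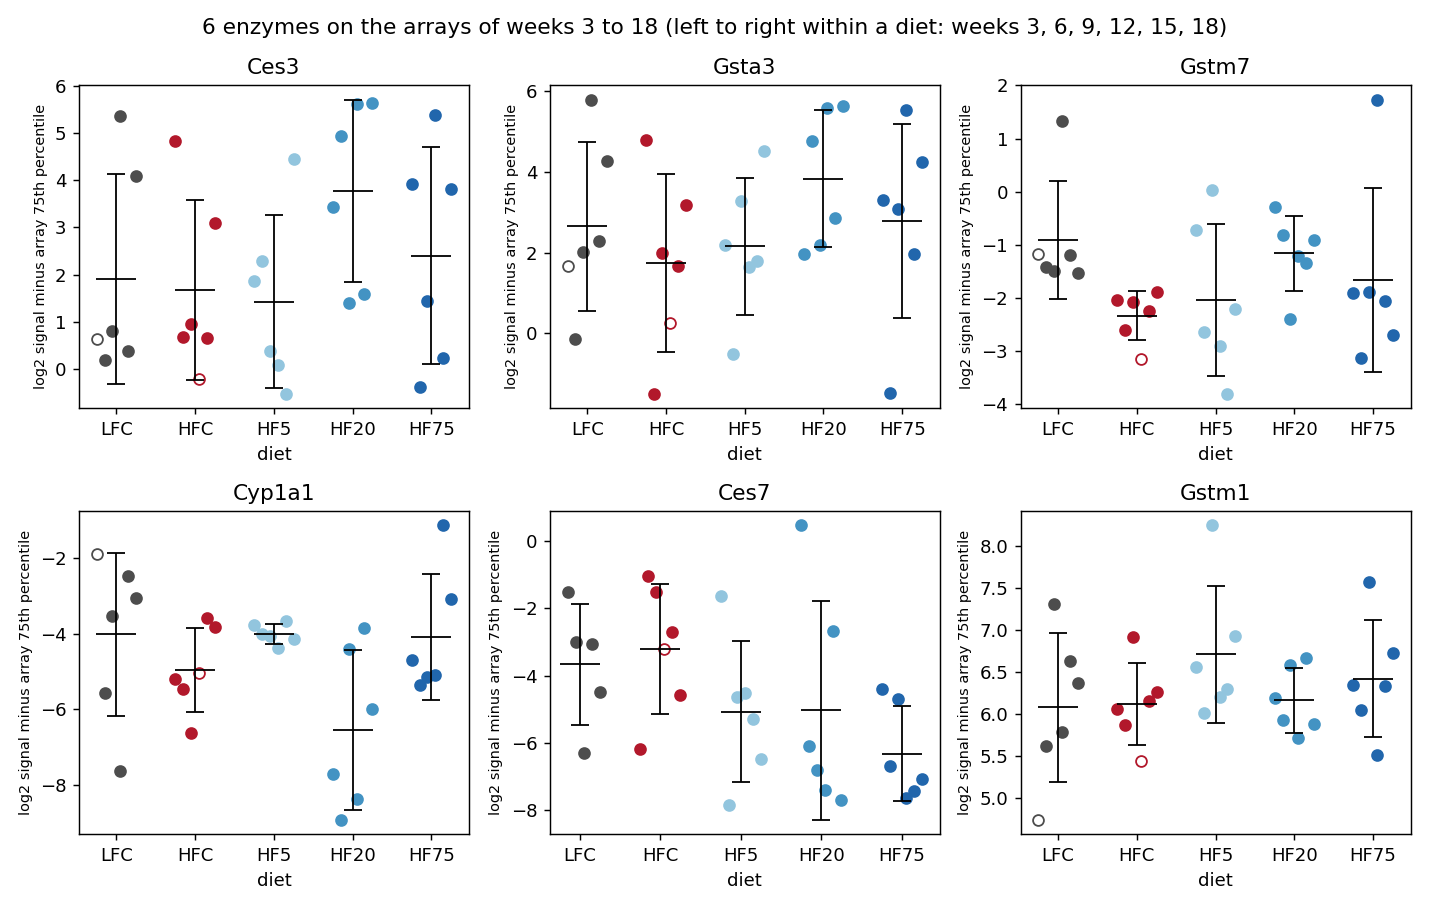
Log2 signal minus the 75th percentile of the array for Ces3, Gsta3, Gstm7, Cyp1a1, Ces7 and Gstm1 in the 5 diets, 1 point per array of weeks 3 to 18 (bar, mean; whiskers, SD; hollow points, week 3 of LFC and week 12 of HFC). The Gstm7 points of HFC lie below those of LFC, and the HF20 points of Ces3 and Gsta3 overlap with those of HFC.

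All 3 doses were compared with the same 6 HFC arrays, so the dose comparisons are not independent of each other, nor of that with LFC. With 5 µg of KAL-1, 27 enzymes were higher and 45 lower than on HFC, with a median of -0.22 against -0.03 for all probes tested. P450s of the Cyp2 family made up much of this, with 19 of 23 below 0 (median -0.32), while 6 of 7 Gstm genes were above 0 (median 0.26). With normexp background correction the Cyp2 median was -0.01 and the Gstm median -0.01. An unadjusted p under 0.05 was seen for 3 of 72 enzymes, and for 3.44% of all probes.

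The highest statistic with 5 µg was that of Gstm1, the major mu class transferase. Gstm1 read 5.43, 6.10 and 6.91 on the 6 HFC arrays and 6.01, 6.43 and 8.24 on the 6 HF5 arrays. The HF5 array was the higher in all 6 weeks, although the groups overlapped. The difference was 0.59 ± 0.26, with p = 0.033 before and 0.955 after adjustment in limma. The spot was saturated on 4 HFC and 3 HF5 arrays, which limits what the size of this difference means. The 8.24 was read on HF5 week 9, the array with the lowest 75th percentile of intensity (119) and the lowest share well above background (53.7%). Gstm2, Gstm3, Gstp1, Gstt2 and Gstt3 also had their highest value of the 37 arrays there, and Cyp2j6 and Cyp2d22 their lowest.

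The phenol sulfotransferase Sult1a1 was also higher with 5 µg in 6 of 6 weeks, by 0.54 ± 0.30. The lowest statistics with 5 µg were those of Cyp2j12, of a family that epoxidises fatty acids, at -1.04 ± 0.39, and of Cyp4f39, a fatty acid hydroxylase, at -1.28 ± 0.54 (-0.83 without week 15). Both probes were dim, and Cyp4f39 was well above background on 1 of the 6 HF5 arrays. Their adjusted p was 0.955 in limma, the lowest of any enzyme at this dose.

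With 20 µg of KAL-1, Ces3, Gsta3 and Cyp2e1 were on average about 2 log2 units higher than on HFC, and Cyp1a1 was 1.59 lower, with none past the adjusted threshold. Ces3 read -0.21, 0.82 and 4.83 on the 6 HFC arrays. On the 6 HF20 arrays it read 1.41, 4.19 and 5.63. HF20 was the higher in 5 of 6 weeks, the exception being week 3, where HFC had its highest value. The difference was 2.10 ± 0.87 (SE), with p = 0.024 before and 0.772 after adjustment in limma. Without the HFC week 12 array, the lowest of HFC, and LFC week 3 it was 1.40 with an unadjusted limma p of 0.092.

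Gsta3, which conjugates glutathione to electrophiles and isomerises steroids, gave similar values. It read -1.49, 1.83 and 4.79 on HFC and 1.96, 3.81 and 5.62 on HF20, again with overlap and with HF20 the higher in 5 of 6 weeks. The difference was 2.09 ± 0.87, with p = 0.024 before and 0.772 after adjustment in limma. Without the 2 arrays that stood apart it was 1.45 (unadjusted limma p = 0.102). Cyp2e1, which oxidises ethanol and ketones, read -0.44, 0.79 and 5.69 on HFC and 1.02, 4.04 and 5.79 on HF20. Its difference of 2.01 ± 0.93 became 1.31 without both arrays.

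The same genes on the other doses gave smaller differences from the shared HFC arrays. Ces3 differed by -0.24 ± 0.87 with 5 µg and 0.73 ± 0.87 with 75 µg. Gsta3 differed by 0.42 ± 0.87 and 1.04 ± 0.87. At week 12, where the HFC array stood apart, the differences with 75 µg were nearly those with 20 µg. Ces3 then differed by 0.29, 5.83 and 5.59 with 5, 20 and 75 µg, and Gsta3 by 1.39, 5.34 and 5.27. The highest Gsta3 value of the 37 arrays, 5.78, was read on LFC week 12, so high values at that week were not particular to 20 µg. The ranges of the dose arrays overlapped, so no order of the doses can be read from these values.

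Of the 8 adipocyte markers, 6 were above and 2 below HFC with 20 µg (median 0.96). Plin1, which coats the lipid droplet, read 1.41, 2.82 and 6.01 on the 6 HFC arrays and 2.45, 5.46 and 5.88 on the 6 HF20 arrays. Its difference was 1.44 ± 0.83, that of Lipe, the hormone-sensitive lipase, 1.44, that of Retn 1.69 and that of Lep 1.76, with a lowest adjusted p of 0.772 in limma. The other 4 differed by less, Adipoq by 0.48, Cidec by 0.31, Cfd by -0.19 and Fabp4 by -0.27. The 5 endothelial markers (Pecam1, Cdh5, Kdr, Tie1 and Emcn) summed to between 23.5 and 147 times the array's 75th percentile on HFC (median 63.2). On HF20 that sum lay between 14.3 and 118 (median 47.0). The summed level of the 8 adipocyte markers ranged from 130 to 525 (median 300) times the array's 75th percentile on HFC and from 237 to 472 (median 354) on HF20. The part of adipocyte content in the differences of Ces3, Gsta3 and Cyp2e1 was not tested.

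**Figure D3:**
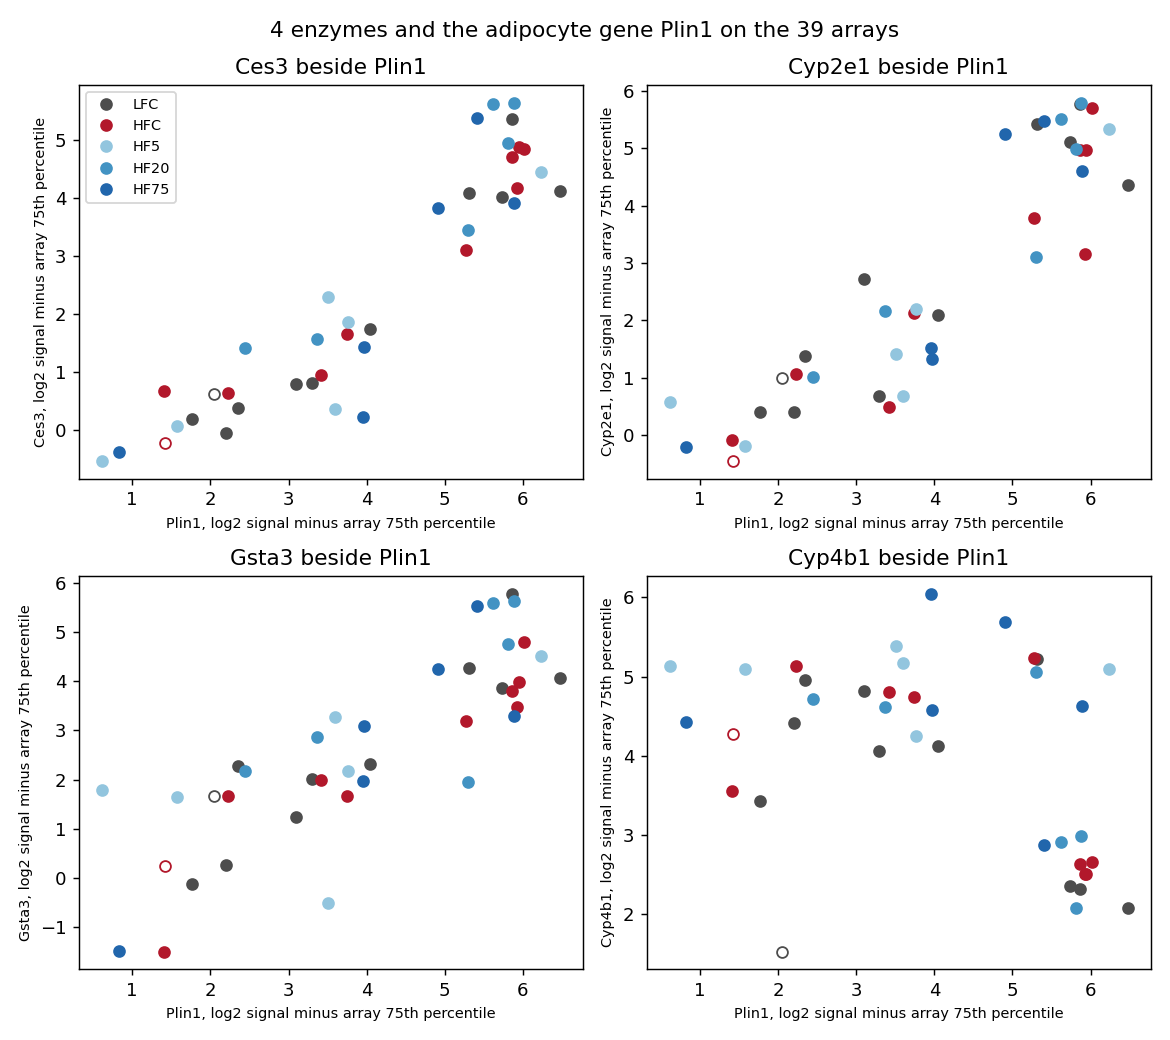
Ces3, Cyp2e1, Gsta3 and Cyp4b1 against the adipocyte gene Plin1 on the 39 arrays, both axes as log2 signal minus the array's 75th percentile (points coloured by diet; hollow, week 3 of LFC and week 12 of HFC). Ces3 ranges from -0.52 to 5.63, with its high values on arrays where Plin1 is also high, and all 39 arrays are shown with no fit.

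Week by week, the HFC arrays of weeks 3, 6, 9, 12, 15 and 18 read 4.83, 0.68, 0.95, -0.21, 0.65 and 3.10 for Ces3. On the same arrays Plin1 read 6.01, 1.41, 3.42, 1.42, 2.23 and 5.28. The 20 µg arrays of the same weeks read 3.44, 4.94, 1.41, 5.62, 1.58 and 5.63 for Ces3 and 5.30, 5.81, 2.45, 5.62, 3.36 and 5.88 for Plin1. On HFC the 2 highest arrays were weeks 3 and 18 for both genes, and with 20 µg the 3 highest were weeks 6, 12 and 18 for both. Retn and Lep were also highest with 20 µg at weeks 6, 12 and 18. Adipoq was not, and read 6.73 at week 3 against 5.83, 5.66 and 5.88 at weeks 6, 12 and 18. Cidec, Fabp4, Lipe and Cfd are not given by week. Cyp4b1, a P450 best known from lung, read 5.06, 2.08, 4.71, 2.91, 4.61 and 2.99 on these 20 µg arrays, lowest at weeks 6, 12 and 18, where Ces3 was highest.

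Cyp1a1, the classical target of the aryl hydrocarbon receptor, lay lower with 20 µg. It read -6.62, -5.12 and -3.59 on HFC and -8.93, -6.87 and -3.85 on HF20, and HF20 was the lower in 5 of 6 weeks. Both groups overlapped and both were dim, with 4 of 6 HFC arrays and 3 of 6 HF20 arrays well above background. The difference was -1.59 ± 0.69, with p = 0.030 before and 0.772 after adjustment in limma, and -1.29 without the 2 arrays that stood apart. With 5 and 75 µg Cyp1a1 differed by 0.95 ± 0.69 and 0.88 ± 0.69.

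The promoters of Cyp1a1 and Gsta3 (250 bases before the RefSeq start to 50 after it, build GRCm38.p6) are shown with matches to known motifs. Neither gene passed the adjusted threshold with 20 µg, and no regulation was tested. In the Cyp1a1 promoter, chr9:57697363-57697662 on the plus strand, the capitals mark GCGTG, the core of the site bound by the aryl hydrocarbon receptor, and TATAAA.
Cyp1a1 promoter: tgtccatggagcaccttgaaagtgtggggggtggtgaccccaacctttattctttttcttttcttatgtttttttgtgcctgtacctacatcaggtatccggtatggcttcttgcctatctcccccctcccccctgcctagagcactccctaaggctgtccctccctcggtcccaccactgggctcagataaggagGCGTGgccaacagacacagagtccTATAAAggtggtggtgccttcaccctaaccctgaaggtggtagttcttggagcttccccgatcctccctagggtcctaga
In the Gsta3 promoter, chr1:21240335-21240634 on the plus strand, the capitals mark a match to TGACNNNGC, the core of the antioxidant response element.
Gsta3 promoter: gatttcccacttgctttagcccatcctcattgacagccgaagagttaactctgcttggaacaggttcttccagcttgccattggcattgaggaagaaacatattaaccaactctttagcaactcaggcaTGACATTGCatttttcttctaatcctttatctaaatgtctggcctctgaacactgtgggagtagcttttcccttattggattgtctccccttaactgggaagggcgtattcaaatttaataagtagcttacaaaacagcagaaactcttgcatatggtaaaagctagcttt
Both strands were searched, and the motifs marked in the Cyp1a1 promoter do not overlap. Counted by gene, GCGTG was in a promoter of 14 of the 57 kept enzymes in the table (24.6%) and of 35.2% of all 27025 genes, which had 32851 promoters (32.4% of these). TGACNNNGC was in 7 of 57 (12.3%), in 14.0% of genes and in 12.4% of promoters. TATAAA was in 14 of 57 (24.6%), in 15.7% of genes and in 13.6% of promoters, and the direct repeat called DR1, bound by pairs of nuclear receptors, in 0 of 57 and in 0.048% of genes. A match here describes the letters of the window and is not evidence of a bound site.

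Other enzymes with an unadjusted p under 0.05 with 20 µg were Ces5, Cyp4f17, Cyp4v3 and Gstt1, which makes 8 of 72 with the 4 above, where 5.05% of all probes had one. Ces5, a carboxylesterase, was 1.46 ± 0.61 log2 units lower on average, but lower in 3 of 6 weeks and higher in 3. Gstt1, a theta class transferase, was 0.82 ± 0.39 higher and was the 1 enzyme of the 72 left with an unadjusted p under 0.05 without the 2 arrays that stood apart, where 2.91% of all probes had one. Over all 72, 42 were higher and 30 lower with 20 µg, with a median of 0.09 against -0.07 for all probes.

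By family with 20 µg, all 7 Gstm genes were above 0 (median 0.75) and so were all 4 Gstt genes (median 0.25), where 44.2% of all probes were. The 7 Gstm genes stayed above 0 with median scaling, quantile scaling and normexp correction, where 64.9%, 59.7% and 39.7% of all probes were. With quantile scaling 3 of 4 Gstt genes did so. Without the 2 arrays that stood apart the Gstm genes ran from 0.03 (Gstm1) to 1.03 (Gstm6), against 0.05 to 1.17 with all arrays. The Cyp2 family was split, with 10 of 23 above 0 (median -0.07), and 3 of 4 Ces genes were below 0. Both Ugt2 genes, Ugt2b34 and Ugt2b37, were below 0 as well (median -1.30). These are counts of signs, since no member of these families passed the test.

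With 75 µg of KAL-1, Ces7 showed the largest difference of any enzyme. It read -6.20, -2.96 and -1.03 on the 6 HFC arrays, all well above background. On the 6 HF75 arrays it read -7.63, -6.89 and -4.39, with 2 of 6 well above background. HF75 was the lower in 5 of 6 weeks, and the groups overlapped. The difference was -3.11 ± 1.11 (SE), with p = 0.010 before and 1.00 after adjustment in limma, and -2.80 with p = 0.029 (limma, unadjusted) without the 2 arrays that stood apart.

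Ces7 is known from the epididymis, which lies next to this fat pad. The summed level of 10 epididymis markers ranged from 0.068 to 17.05 (median 6.60) on HFC and from 0.051 to 20.1 (median 0.918) on HF75. Of the 10, between 2 and 10 were well above background on the HFC arrays and between 0 and 7 on the HF75 arrays. The part of epididymal RNA in the difference of Ces7 was not tested. Ces7 was also below HFC with 5 µg (-1.86 ± 1.11) and with 20 µg (-1.83 ± 1.11), against the same HFC arrays.

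Over all 72 enzymes, 38 were higher and 34 lower with 75 µg, with a median of 0.05 against -0.02 for all probes. Ces7 was the only one with an unadjusted p under 0.05, and 1.54% of all probes had one. Among the highest statistics were Gstt3 at 0.53 ± 0.30 and Gstm5 at 0.90 ± 0.51, and at the low end Sult4a1, a brain sulfotransferase, at -0.81 ± 0.40. Gstm5 fell to 0.51 without the 2 arrays that stood apart and to 0.27 without week 12 of all diets. All 4 Gstt genes were above 0 (median 0.44), with 3 of 4 above 0 after normexp correction.

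When the 3 doses were averaged and set against HFC, 37 enzymes were higher and 35 lower (median 0.02, all probes -0.03). Ces7 was at -2.27 ± 0.91 and was the only one of 72 with an unadjusted p under 0.05, where 1.86% of all probes had one. Sult4a1 was at -0.66, Gsta3 at 1.18 ± 0.71 and Gstm5 at 0.70 ± 0.42. Families with a single kept gene or no leading one gave small differences: Cyp3a11, the main inducible P450 of liver, -0.52 ± 0.47, Gstk1 of mitochondria 0.48 ± 0.39, Gsto2 0.27 ± 0.33 and Gstp1 0.39 ± 0.27. Without the 2 arrays that stood apart, Ces7 was at -1.96 (unadjusted limma p = 0.064), which left 0 of 72 enzymes under 0.05 against 1.18% of all probes. Gsta3 was then at 0.54, Gstm5 at 0.30, Gstk1 at 0.08, Gsto2 at 0.14 and Gstp1 at 0.18.

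The difference between the highest and the lowest dose does not rest on the HFC arrays, although its SE and p do, since all 5 diets shared 1 estimate of the spread. HF75 was above HF5 for 47 enzymes and below it for 25 (median 0.14, all probes 0.00). No enzyme had an unadjusted p under 0.05 (0 of 72) while 5.73% of all probes did, and the lowest adjusted p of an enzyme was 0.870 in limma. Without the 2 arrays that stood apart the differences were the same, while 1 enzyme, Cyp4f40 at 0.86, had an unadjusted p under 0.05 and so did 8.1% of all probes. With normexp correction the median was -0.22 and 27 of 72 were above 0. All probes moved likewise, to a median of -0.25 with 33.8% above 0.

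The genes that control and supply these enzymes were tested in the same way, from a list of 49 receptors, electron donors, cofactor enzymes, other phase I and II enzymes and exporters, of which 46 were tested. None passed an adjusted p of 0.05 in any comparison. With 20 µg, 29 were higher and 17 lower (median 0.23), and 15 of 17 other oxidising, reducing and hydrolysing enzymes were above 0 (median 0.79). Of these, Aldh1a1, which makes retinoic acid, was 1.25 higher, Mgst3, a membrane-bound transferase, 1.36 and Fmo5, a flavin monooxygenase, 0.79, each with an adjusted p of 0.772 in limma. With 75 µg, 36 of the 46 were above 0 (median 0.24), and with 5 µg 31 were (median 0.11). The receptor gene Ahr differed from HFC by -0.14 with 5 µg, -0.31 with 20 µg and 0.51 with 75 µg.

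Some enzymes read differently early and late, but time ran with the scan. All day arrays were read by the scanner some time after the week arrays, so that among the early arrays only week 0 shared a scan period with the late ones, and for the day arrays age and scan period cannot be told apart. Late means weeks 3 to 18, and early means the days and week 0.

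On HFC, Gstm7 and Sult1c2 were lower on every late array than on any early one, 2 of the 72, and 2.06% of all probes were. Gstm7 read 1.49, 2.59 and 2.38 on days 6, 10 and 14 and -0.67 at week 0, which made 4 early arrays. The 6 later HFC arrays read -3.14, -2.16 and -1.89. The day arrays were the highest, and week 0 lay between them and the later weeks. The difference was -3.78 ± 0.58, with p = 4.37e-05 before and 0.204 after adjustment in limma. Against week 0 alone, which assumes that this single array varies like the others, it was -1.66 ± 0.55, with an adjusted limma p of 1.00.

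Sult1c2 read -0.30, -1.31 and 0.91 on days 6, 10 and 14 and -3.98 at week 0 on HFC. The late arrays with a value read -8.35, -5.80, -4.27, -5.46 and -4.67 at weeks 3, 6, 9, 15 and 18. The week 0 array was close to the late ones, of which 4 of 6 were well above background. The difference was -4.54 ± 1.05 and the adjusted p 0.204 in limma. Against week 0 alone it was -1.73 ± 1.39.

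With week 0 left out, that is with days 6, 10 and 14 as the early arrays, 5 enzymes passed the adjusted threshold on HFC, as did 2.79% of all probes. These were Gstm7 at -4.48, Sult1c2 at -5.48, Cyp4f15 at -3.81, Gstm6 at -3.17 and Gstm5 at -2.59. Their early arrays were then all of the later scan period. With all early arrays, 19 enzymes passed when arrays were weighted by their quality, as did 24.7% of all probes, and Gstm7 alone passed with median scaling, as did 0.0903%. In the unweighted comparison Gstm5 was at -2.05, Gstm6 at -2.43 and Cyp4f15 at -3.11, all with an adjusted p of 0.21 or 0.22 in limma.

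Over all 72 enzymes, 39 were higher and 33 lower late on HFC (median 0.07, all probes 0.02). An unadjusted p under 0.05 was found for 13 of 72, and for 17.1% of all probes. The highest statistics were those of Ugt2b34, at 1.22 ± 0.48, and of Cyp1a1, at 1.61 ± 0.64. Cyp1a1 was dim in both groups, with 3 of 4 early arrays well above background. Of the 8 adipocyte markers, 2 were higher and 6 lower late on HFC (median -1.06). The endothelial markers summed to a median of 32.0 on early and 63.2 on late HFC arrays. On LFC these medians were 95.6 and 63.5. The part of cell content in the changes with time was not tested.

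**Figure D4:**
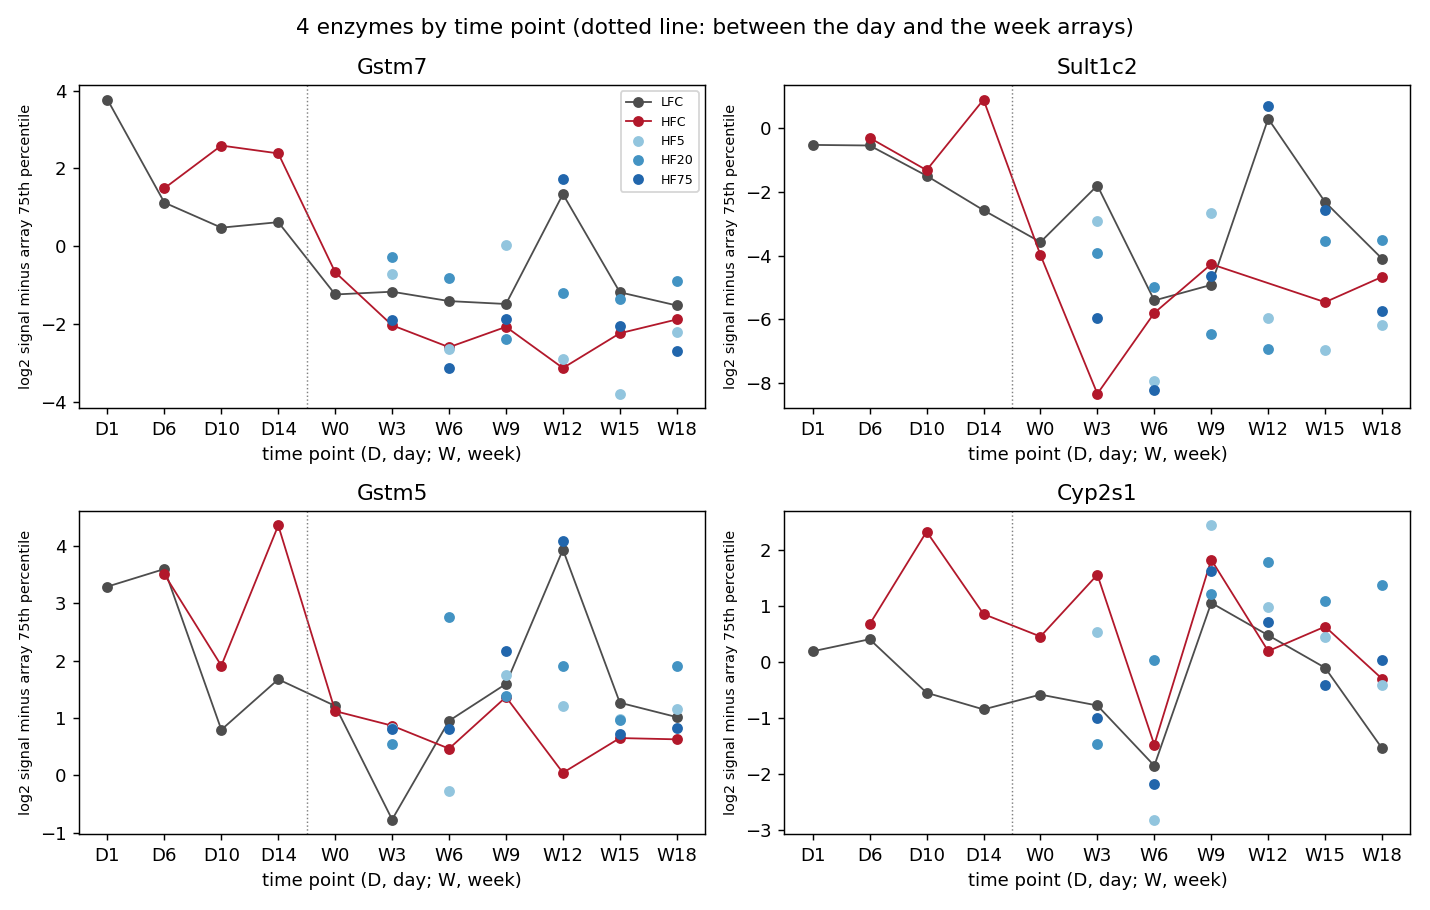
Gstm7, Sult1c2, Gstm5 and Cyp2s1 at each time point (log2 signal minus the array's 75th percentile; lines, LFC and HFC; points, KAL-1 doses; dotted line, between the day arrays and the week arrays). Gstm7 on HFC is above 1 on the 3 day arrays and below -1 from week 3 on, and the LFC and HF75 arrays of week 12 stand out at 1.34 and 1.73.

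On LFC, 35 enzymes were higher and 37 lower late than early (median -0.01, all probes -0.09), and 145 of all probes passed the adjusted threshold (0.468%), none of them a kept enzyme. Gstm7 read 3.77, 1.12, 0.47 and 0.61 on days 1, 6, 10 and 14 and -1.24 at week 0. The late arrays read from -1.53 to 1.34, so that the groups overlapped. The difference was -1.86 ± 0.79, and it turned to 0.33 against week 0 alone. Cyp4f14, which inactivates leukotriene B4, had the lowest p of the kept enzymes on LFC, with 1.28 ± 0.40 and an adjusted limma p of 0.516. Cyp2j9 was at 0.76 ± 0.32 and Cyp4f17 at -1.63 ± 0.60, and 6 of 72 enzymes had an unadjusted p under 0.05, as did 5.49% of all probes.

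Gsta2, an alpha class transferase that was not kept, was the only tested name to pass the adjusted threshold with all arrays and the scaling used throughout. Of the names not kept, 16 were tested in weeks 3 to 18, 10 late against early on LFC and 5 in each other comparison. The rest were too dim to be tested. Gsta2 is given here on LFC, late against early. It read -5.81, -5.64, -4.40 and -5.70 on days 1, 6, 10 and 14 and -5.52 at week 0 on LFC. The late arrays with a value read -7.56, -6.81, -7.65, -7.32 and -7.85. All late arrays lay below all early ones, as for 0.89% of all probes, and 4 of 5 early but 1 of 5 late arrays were well above background. The difference was -2.02 ± 0.38 (n = 5 and 5), with an adjusted p of 0.047 in limma. It stayed under 0.05 in 4 of the 20 alternatives run, with a range of 0.023 to 1.00. Against week 0 alone the difference was -1.91, with an adjusted limma p of 1.00. The Gsta2 probe shares 20 bases with that of Gsta1.

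Whether the change with time differed between the diets was tested on the HFC minus LFC differences, late against early. No enzyme passed (0 of 72 and 0.0% of all probes), with a lowest adjusted p of 0.833 in limma. An unadjusted p under 0.05 was found for 6 of 72, against 5.26% of all probes. Among these, Gstm7 was at -2.63 ± 0.77 and Cyp2f2, a P450 of airway epithelium, at -3.31 ± 0.96, while Cyp4b1 was at 1.45 ± 0.57 and Cyp2a4 at 1.97 ± 0.75. Without the 2 arrays that stood apart 13 enzymes had an unadjusted p under 0.05, as did 7.09% of all probes, and Gstm7 was at -2.002. With all arrays, the 8 adipocyte markers were all below 0 in this comparison (median -1.13). The part of adipocyte content in these values was not tested.

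Where a name had several probes, the brightest stood for the gene. For 13 kept names more than 1 probe was tested, and the signs of the probes differed for 4 of them in HFC against LFC, 4 with 5 µg, 4 with 20 µg and 5 with 75 µg. Gstm7 and Gsta3 were not among these in HFC against LFC, where the 2 Gstm7 probes read -1.42 and -2.06 and the 2 Gsta3 probes -0.91 and -0.87.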

How the data were processed

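The arrays were scanned by the authors, and the deposited scanner files hold linear signal intensity per spot from Agilent Feature Extraction (10.5.1.1 per the file headers, 9.1 per the labels; build mm9). The processed intensity was taken as deposited, outlier spots were set to missing, spots of a probe were averaged, and log2 minus the 75th percentile of the array was computed. The authors also deposited a table of log2 differences, each array less the LFC one at that time, used as an alternative. Week 9 files held rounded signals. The precision is limited by the number of arrays.

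Tests used limma 3.58.1 in R 4.3.3, two-sided, with Benjamini-Hochberg adjustment over all probes that stood well above background on 6 or more of 30 arrays (weeks 3 to 18, 5 diets in 1 fit, time point as a block), 10 of 20 (paired time points) or 5 (late against early). The fit was also run on simulated arrays with known changes, with no missing values and a spread held below that of most enzymes here. That run therefore does not show how the fit performs on these enzymes. The study's t-test between replicates of a time point could not be made with 1 array for each. The members, the pathway and marker lists and the rules were chosen with earlier results of these data known. Named genes were the 2 highest and 2 lowest statistics per comparison and 1 gene of each remaining family. Cyp2e1, Cyp2f2, Cyp4b1, Cyp4f15, Gsta2, Gstm6, Gstt1 and the single pathway genes were named after their values were seen. Marker lists covered adipocytes, epididymis, liver, testis, macrophages, mesothelium, endothelium, skeletal muscle and brown fat. Alternatives were another background correction, scaling, filter, block and weights, outlier spots kept, and arrays or time points left out.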

Additional observations from a re-analysis of the deposited data

Results flagged for a closer look

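Single arrays lay far from the others of their group in 4 of 76 gene and group pairs, where chance gives about 1 in 20. Gstm7 read 1.34 on LFC week 12, with the other 5 LFC arrays of weeks 3 to 18 between -1.53 and -1.17. Ugt2b34 read -4.0035 on HFC day 6, with the other early HFC arrays between -5.22 and -5.04. Cyp3a11 read -7.53 on HFC week 9, with the others between -5.41 and -4.96. Gstp1 read 6.19 on HF5 week 9, the array with the lowest 75th percentile of intensity, with the others between 5.02 and 5.41.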

How the results depend on the processing

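Of the named enzymes' alternatives, 712 kept direction and side of the threshold, 7 moved past it (all late on HFC) and 3 turned: Cyp2a4 in HFC against LFC and Cyp4f17 late on LFC with normexp (-0.38 and 0.18), and Gstm7 late on LFC within 1 scan period (0.33). The median over the enzymes in HFC against LFC was -0.44 with normexp, and that over all probes -0.26. That of 20 µg was 0.36 with median scaling, 0.32 with quantile scaling and 0.31 over probes well above background on every array. Median scaling moved the median of all probes to 0.30, 0.21 and 0.31 for 5, 20 and 75 µg and 0.28 for their mean, and the share of probes higher from 44.2% to 64.9% with 20 µg and from 48.2% to 73.5% with 75 µg; normexp moved it from 57.5% to 31.2% in HFC against LFC. The cause was not tested.

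Probes called late on LFC numbered 0 with normexp, 88 with median and 71 with quantile scaling, 79 over probes well above background on every array, 79 with outlier spots kept, 323 with array weights and 0 within 1 scan period, where fewer arrays were fitted. Late on HFC they numbered 27 with median scaling (1 enzyme, Gstm7), 7395 with array weights (19 enzymes) and 1 within 1 scan period. HF75 against HF5 gave 2 with array weights and 1 without the 2 arrays that stood apart, and the difference of the diets' time changes gave 2 and 2. With each time point left out, calls ranged from 51 to 212 late on LFC, from 0 to 833 late on HFC (0 to 5 enzymes, 5 without week 0) and from 0 to 1 for the mean of the doses, and stayed at 0 in the other comparisons.

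Without the replicate block (time point not in the fit), 0 enzymes passed in any comparison and the median with 20 µg was 0.15. The methods' t-test, run on paired differences between time points, gave an unadjusted p under the usual threshold for 0 to 4 enzymes in each comparison it was run for and, after Benjamini-Hochberg adjustment, for 0. The slide as a random block was run for weeks 3 to 18 only. The 1 array per diet and time point, the shared HFC arrays and the wide spread between weeks limit all comparisons.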

Other observations

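Other cell types also left a varying signal in the fat pads. Brown fat markers (Ucp1, Cidea, Cpt1b and Cox8b) summed to 79.3 times the array's 75th percentile on LFC week 12 and to between 1.21 and 6.04 on the other LFC arrays of weeks 3 to 18; on that array Gstm7 read 1.34, Sult1c2 0.31 and Gstm5 3.94, the highest values of LFC in weeks 3 to 18. On HF75 week 12, where the same 3 genes read 1.73, 0.71 and 4.09, the sum was 14.3. Liver markers summed to 42.8 on LFC week 3, one of the 2 arrays that stood apart, and to a median of 0.727 on LFC in weeks 3 to 18. Testis markers reached 97.4 on 1 HF20 array against a median of 0.662. In weeks 3 to 18, macrophage markers had medians between 16.8 on HFC and 25.9 on HF75. In the same weeks the medians of mesothelial markers lay between 5.63 on LFC and 15.6 on HF20. Those of skeletal muscle markers then lay between 1.65 on HFC and 2.77 on HF20, and of endothelial markers between 47.0 on HF20 and 93.8 on HF5. The part of these cells in the enzyme values was not tested.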
